A study of Bos grunniens with 3 samples.

Results

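Heat shock and chaperone genes were read from single-cell libraries of white yak hair follicle cells. The genes were the rows whose symbol begins with HSP followed by A, B, D, E, H or a digit, with DNAJA, DNAJB or DNAJC and a digit, with BAG and a single digit, or with CCT and a digit. This gave 68 genes of the 26924 in the matrices, of which 15765 carried a symbol. By family they were 3 HSP90, 9 HSP70, 3 HSP110, 4 small HSP, 12 DNAJA and DNAJB, 21 DNAJC, 6 BAG and 7 CCT genes, and 3 genes named after a heat shock protein (*HSPB11*, *HSPBAP1* and *HSPBP1*). No row carried the symbols *HSPA1A*, *HSPB1*, *HSPD1*, *HSPE1*, *DNAJA1*, *DNAJB1*, *CCT6A* or *CCT8*, and these were not analysed here.

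The samples were 3 10x Genomics 3′ libraries from scapular skin of healthy Tianzhu white yak (*Bos grunniens*) about 2 years old, 1 in each of the growth (anagen), regression (catagen) and resting (telogen) phases of the hair follicle. Skin was cleaned with 75% ethanol, hair follicles were pulled out after 2 hours in 0.25% dispase at 37 °C, and cells were released by 0.25% trypsin for 0.5 hours. Stage, library and the Cell Ranger version in the file headers cannot be told apart, the animals are not mapped to libraries, and no spread between animals can be given. The catagen library is called so by its title and stage label, whereas its protocol text names anagen. Levels are given as CPM, the UMIs of a gene (unique molecular identifiers, each tagging 1 captured mRNA) scaled to the total UMIs of the library or cluster. Ratios are log2 of CPM, and all 95% intervals cover counting error only. There are no p-values, since each stage had 1 library.

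Chaperones bind unfolded or partly folded proteins and keep them from aggregating. HSP70 proteins work in a cycle that J domain proteins (the DNAJ genes) start and that HSP110 and BAG proteins help to finish by releasing the nucleotide, HSP90 proteins take over clients such as kinases and receptors, and the CCT proteins form a closed ring that folds actin and tubulin. Small HSPs hold unfolded proteins without using ATP. In the hair follicle and epidermis these genes serve both the dividing cells of the bulb and the keratinocytes that fill with keratin.

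The kept cells numbered 11987 in anagen, 12062 in catagen and 14502 in telogen, with medians of 5251.5, 3339.5 and 5561 UMIs per cell before filtering. The smallest cell had 2404 UMIs in anagen, against 500 in catagen and 500 in telogen. Under 2404 UMIs lay 4104 of the kept catagen cells and 3953 of the kept telogen cells. The medians and the shares of cells per cluster are therefore not like for like between anagen and the other libraries. Between 40 and 48 cell barcodes were shared by each pair of libraries. All 3 libraries were integrated and clustered together with the chaperone genes left out of the variable genes, which gave 26 clusters. Of these, 24 held at least 30 cells of each library and served as compartments. Clusters were called X-like only from marker lists, and otherwise by their leading genes. Clusters 3 (led by *S100A12*) and 10 (*PIK3C2G*) were shallow in catagen and telogen, with medians of 752 to 1147 UMIs per cell, and cluster 3 held 2698 telogen cells against 223 anagen cells. Cells that shallow were absent from the anagen matrix, so these cell numbers are not read as a stage difference. Early response genes, listed as signs of tissue dissociation, differed strongly between the libraries: the 16 with a row summed to 9378 CPM in anagen, 10664 in catagen and 4640 in telogen. The part of dissociation, depth and library in the stage ratios below was not tested. For many genes the number of compartments with a ratio in the same direction is also given. All compartments of a stage come from the same library, so these numbers are not independent and do not replicate the stage. They are given without the share of all genes that show the same agreement.

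The chaperone genes held 1.24% of all UMIs in anagen, 1.12% in catagen and 1.09% in telogen. Most of this came from *HSP90AA1*, *HSP90AB1*, *HSPA5* and *HSPA8*, which held 78.1%, 75.4% and 76.9% of the chaperone UMIs. Of the 68 genes, 40 reached 10 CPM in at least 1 library, 16 lay between 1 and 10 CPM at their highest, and 12 stayed under 1 CPM. *HSPB7*, *CCT8L2*, *DNAJC22* and *DNAJC5G* had 0 UMIs in all 3 libraries, which at 3 counts allows a level of up to 0.0362 CPM in anagen, 0.0582 in catagen and 0.029 in telogen. The other 64 were seen in every library. The levels of these 40 genes ran from *BAG2* at 6.03 CPM in catagen to *HSP90AA1* at 3827 CPM in anagen.

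**Figure D1:**
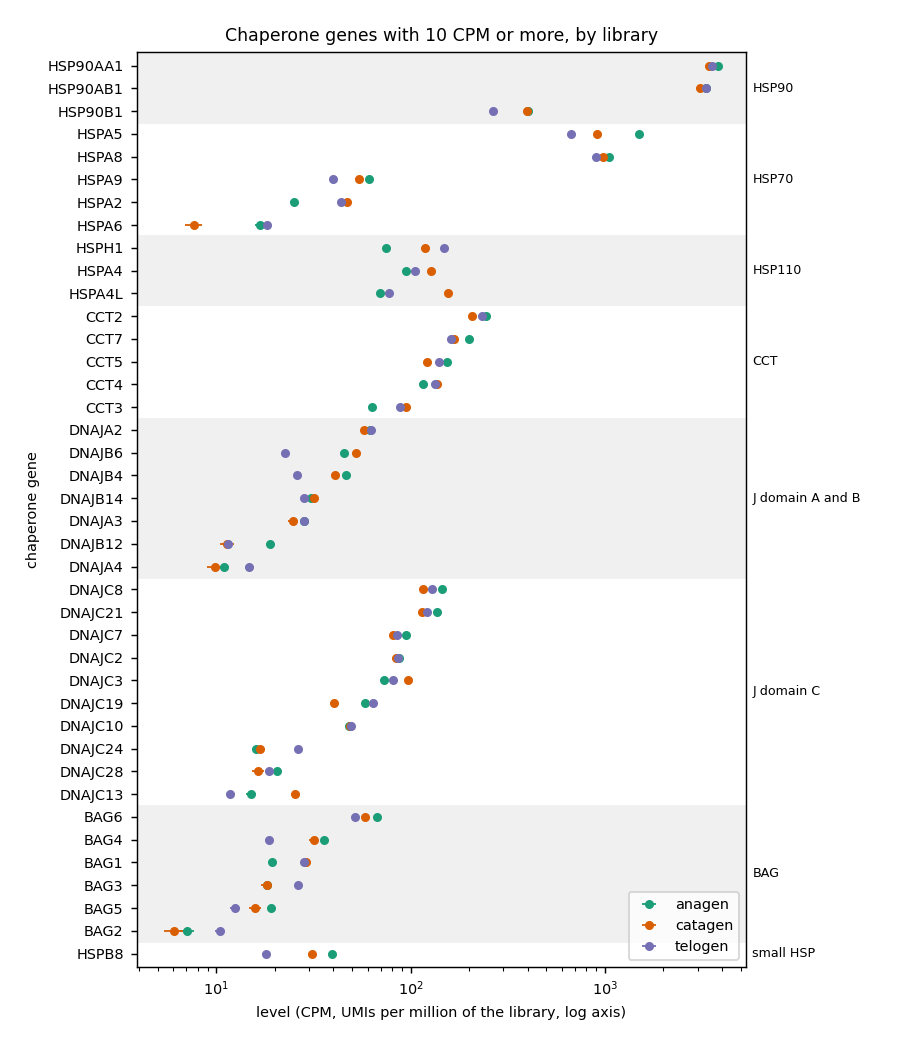
Level of the 40 chaperone genes that reached 10 CPM in a library, on a log axis in CPM, with 1 point per library and bars for the exact 95% Poisson interval. HSP90AA1 and HSP90AB1 sit above 3000 CPM in all 3 libraries, and HSPA5 falls from 1502 CPM in anagen to 911 in catagen and 668 in telogen.

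Chaperone genes past 2-fold between the libraries were counted beside all genes. In catagen over anagen, 1 of 39 genes with 10 CPM in either library was at least 2-fold higher (*HSPA4L*), where 4.41% of all genes were, and 1 was at least 2-fold lower (*HSPA6*), where 3.47% of all genes were. In telogen over anagen, 0 of 40 were higher by that factor, beside 3% of all genes, and 3 were lower (*HSPA5*, *HSPB8* and *DNAJB6*), beside 7.83%. In telogen over catagen, 1 of 40 was higher (*HSPA6*), beside 4.1%, and 3 were lower (*HSPA4L*, *DNAJB6* and *DNAJC13*), beside 12%. The shares of chaperone genes were thus 2.56%, 2.56%, 0%, 7.5%, 2.5% and 7.5% in the same order, none above the share of all genes at 2-fold. With counts this small, the differences from all genes are not read as a result. At 1.5-fold, 4 were higher and 3 lower in catagen over anagen, or 10.3% and 7.69%, beside 15.7% and 12.5% of all genes. In telogen over anagen 3 were higher and 9 lower, or 7.5% and 22.5%, beside 8.37% and 21.8%. The share lower thus lay slightly above that of all genes there. In telogen over catagen 5 were higher and 7 lower, or 12.5% and 17.5%, beside 12.8% and 30.3%. Telogen over anagen and telogen over catagen share the telogen library, and the ratios to anagen share the anagen library, so these counts are not independent.

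Among genes with 10 CPM in either library, the median chaperone gene lay below the median of all genes in catagen over anagen. It lay above that median in both telogen comparisons. Its log2 ratio was -0.15 in catagen over anagen, where the median of all genes was 0.05, it was -0.10 against -0.18 in telogen over anagen, and it was -0.01 against -0.25 in telogen over catagen. Scaling by the median of ratios in place of total UMIs moved the median of all genes to -0.24, 0.09 and 0.30, so each ratio is best read against the median gene of its comparison. The share of chaperone genes with a ratio above 0 was 33.3%, 42.5% and 50% in the 3 comparisons, beside 53.2%, 37.0% and 36.4% of all genes. With that scaling it became 20.5%, 70.7% and 82.9%, beside 33.0%, 56.6% and 67.8% of all genes. With clusters weighted equally it was 53.8%, 47.5% and 39.0%, beside 59.1%, 40.5% and 35.0%. With 50 CPM as the limit the medians lay closer, at -0.11, -0.10 and -0.05, beside -0.07, -0.12 and -0.08 of all genes. The share above 0 was then 30.4%, 36.4% and 47.8%, beside 44.4%, 43.5% and 46.5%. In telogen over anagen it thus fell below that of all genes, as it did with the mean of per-cell CPM (30.8% beside 33.7%). The contrast therefore depends on the level limit. Of the 75 stage ratios of the 25 genes described with values here, 45 kept their sign in all of the 10 alternatives tried. Apart from *HSPA12B*, no ratio beyond 0.45 in size changed its sign. Median-of-ratios scaling shifts all ratios of a comparison by the same amount, so it cannot turn the sign of a ratio larger than that shift.

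**Figure D2:**
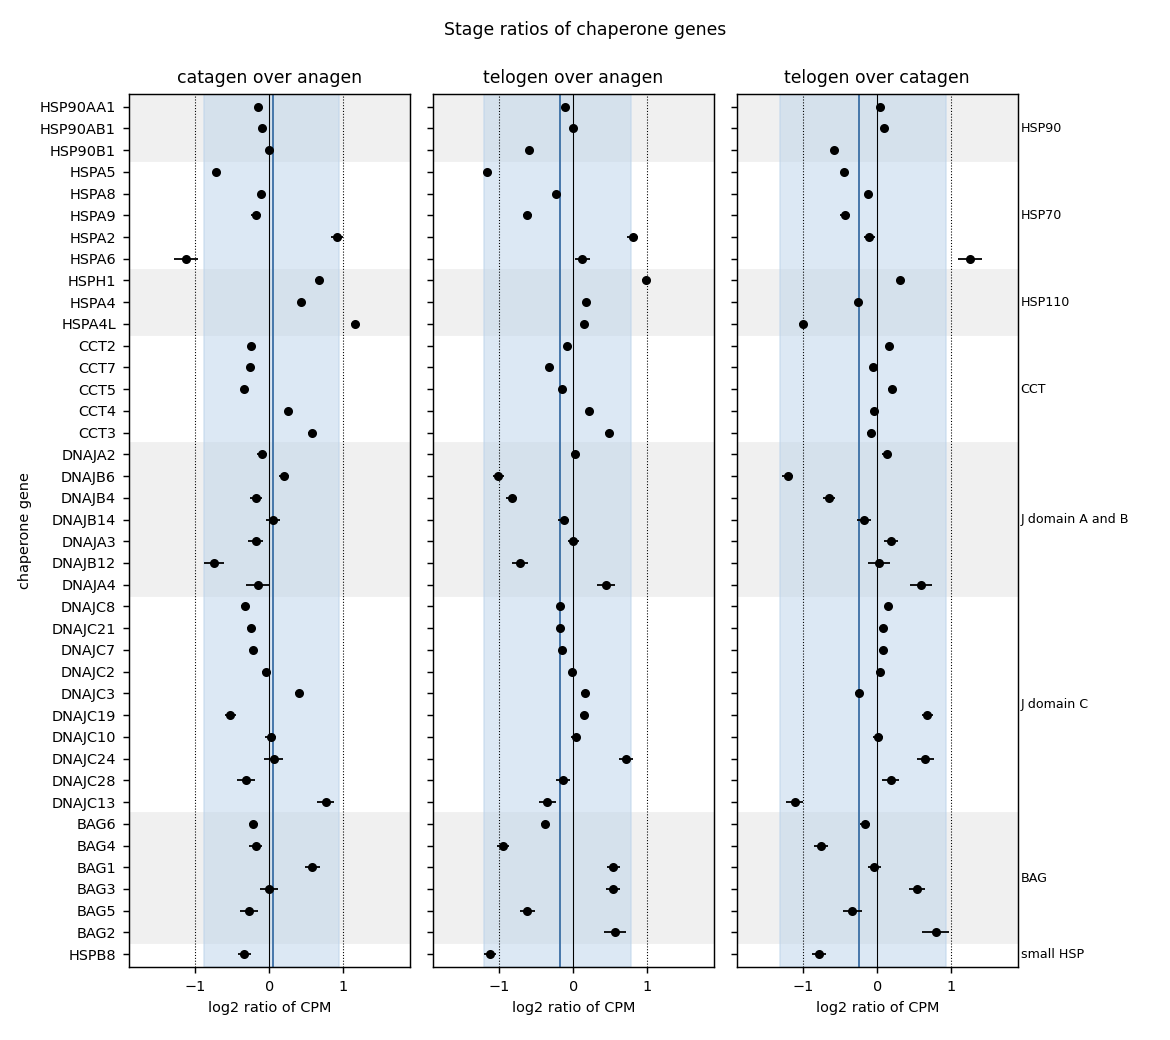
Log2 ratio of CPM between libraries for the 40 chaperone genes that reached 10 CPM, with exact 95% intervals as bars, the middle 90% of all genes as the blue band, its median as the blue line and 2-fold as dotted lines. HSPA4L and HSPA6 lie outside the band in catagen over anagen, and HSPH1 and HSPA2 in telogen over anagen.

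The cytosolic HSP90 genes were the most abundant of all chaperone genes and differed little between stages in CPM. *HSP90AA1*, the stress-inducible form, stood at 3827 CPM in anagen, 3441 in catagen and 3537 in telogen. *HSP90AB1*, the constitutive form, stood at 3316, 3102 and 3314 CPM. By CPM all 3 libraries lay close together for both genes. The log2 ratio of catagen over anagen was -0.15 for *HSP90AA1* and -0.10 for *HSP90AB1*. These values came to 0.0046 and 0.0070 when clusters were weighted equally, and to -0.41 and -0.35 under median-of-ratios scaling. For telogen over catagen the ratios were 0.04 and 0.10, and 0.54 and 0.60 under that scaling. How close the libraries lie thus depends on the scaling. These paralogs are alike in sequence, and reads that map to both are not counted by Cell Ranger, so their absolute levels are uncertain. The HSP90 genes were lowest in cluster 10, at 1289, 3742 and 2721 CPM in sum, and highest in the mitotic-like cluster 9 in anagen and catagen, at 11608 and 13579 CPM. In telogen the highest sum was in cluster 20, led by *ELOVL3*, at 11902 CPM.

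The balance between the 2 cytosolic forms differed more between compartments than between stages. Over all cells, *HSP90AA1* made up 53.6% of the UMIs of the pair in anagen (exact binomial interval 53.4% to 53.7%), 52.6% in catagen and 51.6% in telogen. In the suprabasal epidermis-like cluster 19, led by *KRT77* and *KRT2*, the share was 69.8% in anagen (68.8% to 70.8%), 69.6% in catagen (68.7% to 70.5%) and 66.6% in telogen (65.0% to 68.1%). This was the highest share of the 24 compartments in each library, and no interval of another compartment reached it. The immune-like cluster 24 had too few cells to serve as a compartment. Its share was 56.1% in anagen, 67.9% in catagen (63.4% to 72.1%) and 64.1% in telogen (61.6% to 66.6%). The catagen and telogen intervals overlapped those of cluster 19. In the bulge and outer root sheath-like cluster 1, led by *IGFBP5*, the share was 41.7% in anagen (41.0% to 42.4%) and 41.6% in telogen (41.0% to 42.2%), the lowest of the compartments in both, and 48.8% in catagen (48.2% to 49.4%). The high share in cluster 19 came with a low *HSP90AB1* level of 1825, 2005 and 1681 CPM, whereas *HSP90AA1* stood at 4217, 4588 and 3345 CPM there. The sum of early response genes in cluster 19 was 14642, 15694 and 9237 CPM, against 8869, 8962 and 3559 CPM in cluster 1, and its part in the shares was not tested.

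**Figure D3:**
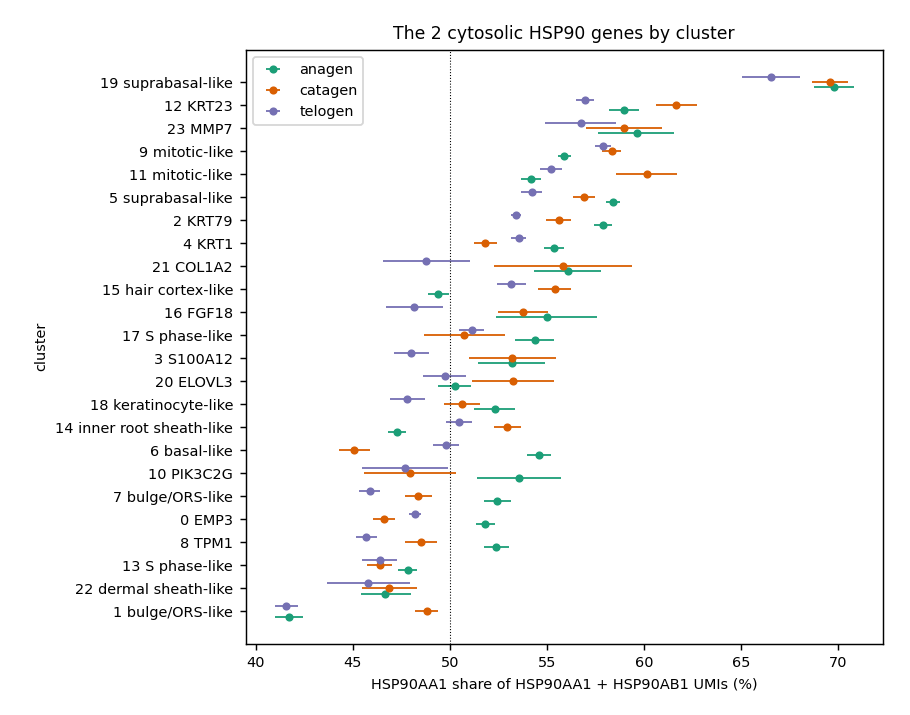
HSP90AA1 share of the UMIs of HSP90AA1 and HSP90AB1 in percent, for the 24 compartments in each library, with exact 95% binomial intervals. Cluster 19 stands alone on the right at 66.6% to 69.8%, and cluster 1 is lowest in anagen and telogen.

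*HSP90B1*, the HSP90 form of the endoplasmic reticulum (ER), was lower in telogen. It stood at 400.2 CPM in anagen, 397 in catagen and 264 in telogen, a log2 ratio of -0.60 for telogen over anagen (interval -0.62 to -0.58). Anagen and catagen lay together and telogen apart, and telogen was lower than anagen within 21 of 24 compartments. *HSP90B1* was high in 3 compartments: the dermal sheath-like cluster 22 held 693, 1009 and 501 CPM, the hair cortex-like cluster 15 held 535, 1251 and 556 CPM, and the S phase-like cluster 13, led by *DCN* and with melanocyte markers (*PMEL*, *TYRP1* and *KIT*) also raised, held 661, 954 and 492 CPM. Cluster 8, led by *TPM1*, held 224, 235 and 167 CPM. The name of cluster 22 rests on *ACTA2*, *TAGLN* and *MYL9*. Markers of bulge and outer root sheath (*LHX2*, *SPARC*, *IGFBP5* and *LGR5*), basal epidermis (*DST* and *ITGA6*) and S phase were also raised there. Its cell type is therefore uncertain.

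*HSPA5*, the HSP70 of the ER (BiP), showed the widest stage range in CPM among the 12 most abundant chaperone genes. Against the median gene, *HSPH1* had the larger telogen over anagen ratio in size, at 1.16 beside -0.99 for *HSPA5*. *HSPA5* stood at 1502 CPM in anagen (1493 to 1510), 911 in catagen (903 to 920) and 668 in telogen (663 to 673). The order anagen, catagen, telogen held with intervals that did not overlap, and the log2 ratio was -0.72 for catagen over anagen (-0.74 to -0.71) and -1.17 for telogen over anagen (-1.18 to -1.16). Against the median gene these were -0.77 and -0.99. For telogen over catagen the ratio was -0.45, which turned to 0.05 under median-of-ratios scaling. Telogen was lower than anagen within 24 of 24 compartments, by 2-fold or more in 16 of them, and catagen was lower than anagen within 20 of 24. The compartments share their libraries, so these counts describe the libraries and do not replicate the stage.

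Within each library *HSPA5* was high in the suprabasal epidermis-like cluster 19, at 2652 CPM in anagen, 1698 in catagen and 1802 in telogen. It was the highest compartment in anagen and telogen, while the dermal sheath-like cluster 22 reached 1716 CPM in catagen, with an interval (1597 to 1842) that overlapped that of cluster 19 (1633 to 1766). Cluster 12, led by *KRT23* and *CNFN*, held 2285, 1208 and 1015 CPM of *HSPA5*. Low levels were found in cluster 8 at 808, 421 and 366 CPM and in cluster 10 at 411, 392 and 408 CPM. In cluster 10 the intervals of the 3 libraries overlapped.

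*HSPA8*, the constitutive cytosolic HSP70, stood at 1053 CPM in anagen, 976 in catagen and 895 in telogen. The log2 ratio was -0.11 for catagen over anagen and -0.23 for telogen over anagen, and these became positive in the first case with clusters weighted equally or at least 1000 genes per cell, and in the second under median-of-ratios scaling. *HSPA8* differed more between compartments. In catagen it reached 2971 CPM in the hair cortex-like cluster 15, 2951 in the mitotic-like cluster 9, 2570 in the S phase-like cluster 13 and 2294 in the inner root sheath-like cluster 14, against 443 CPM in cluster 4, led by *KRT1*. In anagen and telogen 3 of the 4 highest compartments were of this set, and cluster 15 held 1752 and 1554 CPM.

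*HSPA2*, an HSP70 abundant in testis and also found in keratinocytes, was lowest in the anagen library. It stood at 25.03 CPM in anagen, 47.1 in catagen and 43.7 in telogen, so catagen and telogen lay together above anagen. The log2 ratio was 0.91 for catagen over anagen (0.83 to 0.996) and 0.80 for telogen over anagen (0.73 to 0.88). Catagen was higher than anagen within 20 of 20 compartments with enough UMIs, and telogen within 20 of 22. *HSPA2* was also among the most uneven chaperone genes between compartments. In cluster 8 (*TPM1*) it held 101 CPM in anagen, 141 in catagen and 118 in telogen, which was 3.55-fold, 2.89-fold and 2.61-fold of its level in the remaining cells (10 CPM was added to both). It was low in cluster 0, led by *EMP3*, at 5.35, 13.1 and 9.48 CPM, and in cluster 13 at 4.10, 4.98 and 11.1 CPM.

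*HSPA6*, which in human cells is induced by strong stress, had the lowest catagen over anagen ratio and the highest telogen over catagen ratio among chaperone genes with 10 CPM in either library. It stood at 16.7 CPM in anagen, 7.64 in catagen (6.91 to 8.44) and 18.2 in telogen. Over all cells catagen lay apart from anagen and telogen, with log2 ratios of -1.13 over anagen (-1.29 to -0.96) and 1.25 for telogen over catagen (1.09 to 1.41). Catagen was lower than anagen within 18 of 19 compartments. The early response genes had their highest sum in catagen, where 14 of 16 stood above anagen and *KLF6* and *IER3* below it. Their part in the *HSPA6* levels was not tested. Telogen was at least 2-fold lower than anagen within 7 of 21 compartments and 2-fold higher within 2. It was at least 2-fold higher than catagen within 9 of 18 and 2-fold lower within 3. The telogen over anagen ratio of 0.12 became negative with clusters weighted equally or with the mean of per-cell CPM. The compartment with the most *HSPA6* changed from library to library, with 47.7 CPM in cluster 15 in anagen, 35.9 CPM in cluster 11 in catagen from 18 UMIs, and 35.1 CPM in cluster 12 in telogen.

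*HSPA12B*, a distant HSP70 relative known from endothelial cells, rested on 32, 34 and 28 UMIs in the 3 libraries. Of these, 8, 5 and 16 UMIs were in cluster 21, which is led by *COL1A2*, *VIM* and *PECAM1* and carries both mesenchymal and endothelial markers, with 97, 52 and 53 cells. The level there was 16.998 CPM in anagen (7.34 to 33.5), 43.6 in catagen (14.2 to 101.8) and 55.9 in telogen (31.9 to 90.7), and the intervals of the 3 libraries overlapped. Its telogen over catagen ratio of -1.29 over all cells became 0.10 when clusters were weighted equally.

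The HSP110 genes, which release nucleotide from HSP70, were together lowest in anagen, at 239 CPM against 401 in catagen and 331 in telogen. All 3 of them had higher levels in catagen and telogen than in anagen. *HSPH1* stood at 75.0 CPM in anagen (73.2 to 76.9), 119 in catagen (116 to 122) and 148 in telogen (145 to 150), an order with no overlap of intervals. Its log2 ratio was 0.66 for catagen over anagen and 0.98 for telogen over anagen (0.93 to 1.02), or 1.16 against the median gene. Telogen was higher than anagen within 24 of 24 compartments, and by 2-fold or more in 10 of them. The hair cortex-like cluster 15 had the most *HSPH1* in every library, at 128 CPM in anagen, 332 in catagen and 235 in telogen. The suprabasal epidermis-like cluster 19 was lowest in anagen, at 32.3 CPM, and held 83.1 in catagen and 77.0 in telogen. The lowest compartment was cluster 12 in catagen, at 36.2 CPM, and the suprabasal epidermis-like cluster 5 in telogen, at 72.9 CPM.

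*HSPA4L* was highest in catagen. It stood at 69.9 CPM in anagen (68.1 to 71.7), 155 in catagen (152 to 159) and 77.3 in telogen (75.7 to 79.1). Anagen and telogen lay close together, with log2 ratios of 1.15 for catagen over anagen (1.10 to 1.201) and -1.01 for telogen over catagen (-1.05 to -0.96). Catagen was higher than anagen within 23 of 24 compartments and higher than telogen within 23 of 23. *HSPA4L* was also strongly compartmental. It was high in cluster 16, led by *FGF18* and *KRT75*, at 183, 383 and 183 CPM, in the bulge and outer root sheath-like cluster 1 at 189, 374 and 151 CPM, and in cluster 8 at 152, 345 and 135 CPM. In telogen the dermal sheath-like cluster 22 was highest, at 213 CPM. Cluster 16 was at least 2.23-fold over all other cells in each library. The basal epidermis-like cluster 6 was at the low end, with 15.04 CPM in anagen, 27.6 in catagen and 15.2 in telogen, so the spread between compartments exceeded that between stages. Clusters 1 and 16 took a larger share of the catagen library, with 15.6% and 3.21% of its cells against 5.93% and 0.425% in anagen. The part of these shares in the catagen ratio was not tested.

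**Figure D4:**
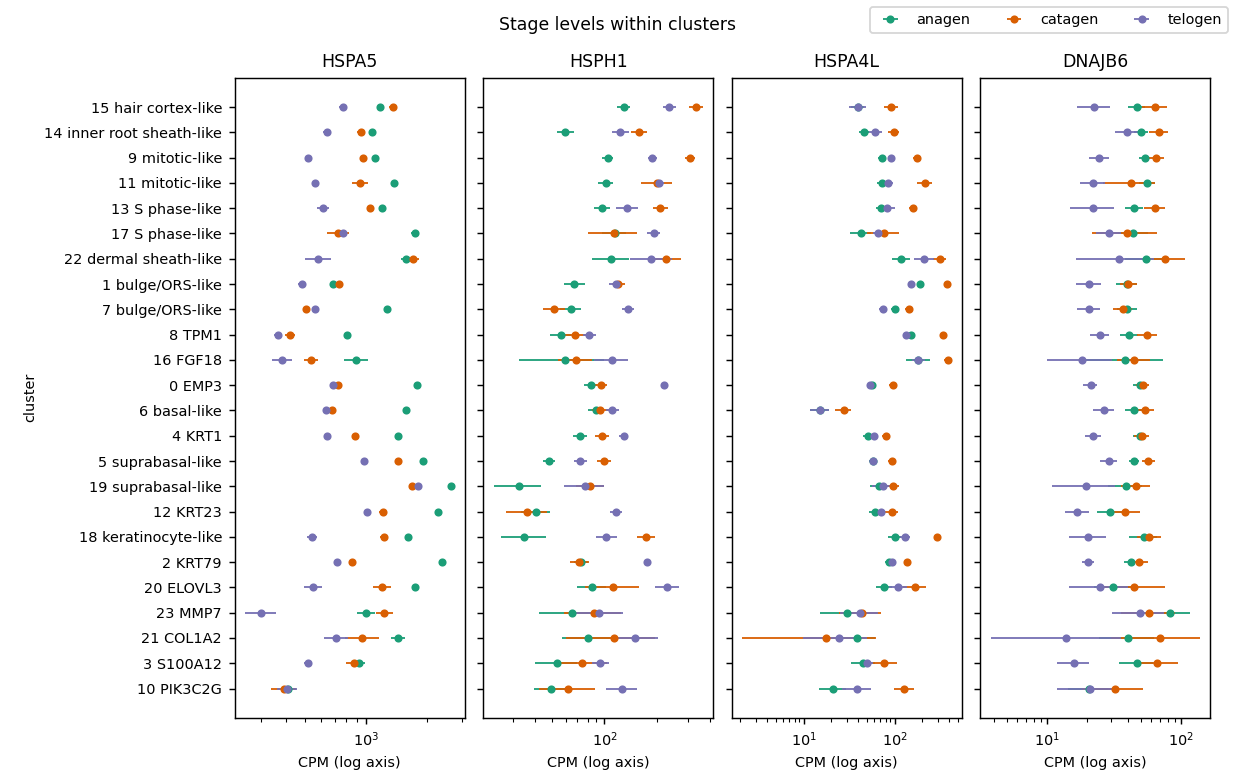
Level in CPM on log axes of HSPA5, HSPH1, HSPA4L and DNAJB6 in the 24 compartments, with 1 point per library and exact 95% Poisson intervals. Telogen lies left of anagen for HSPA5 and right of it for HSPH1 in every compartment, and catagen lies right of anagen for HSPA4L in all but cluster 21.

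Among the DNAJA and DNAJB genes, which bring clients to HSP70, 7 of 12 reached 10 CPM in a library. *DNAJB6*, a suppressor of protein aggregation, stood at 45.3 CPM in anagen, 52.0 in catagen and 22.5 in telogen. Telogen lay apart below both, with log2 ratios of -1.01 over anagen (-1.09 to -0.94) and -1.21 over catagen (-1.29 to -1.13). Telogen was lower than catagen within 23 of 23 compartments and lower than anagen within 23 of 24, and in anagen the compartments ran from 20.6 CPM in cluster 10 to 82.03 in cluster 23. *DNAJB4* was also lowest in telogen, at 46.3, 40.8 and 26.0 CPM, but stood higher in anagen than in catagen. *DNAJB4* was uneven between compartments: cluster 21 held 130 CPM in anagen, 96.01 in catagen and 108 in telogen, at least 2.09-fold over all other cells in each library, against 17.3, 13.5 and 14.5 CPM in cluster 8. Cluster 21 was the highest compartment in anagen, with cluster 6 next at 118 CPM, and in telogen. In catagen, where cluster 21 had 52 cells, clusters 20 and 19 held more *DNAJB4*, at 136 and 128 CPM. *DNAJB12*, which sits in the ER membrane, stood at 18.9, 11.3 and 11.5 CPM. It was lower in catagen than in anagen within 18 of 18 compartments and lower in telogen than in anagen within 19 of 19.

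Of the 21 DNAJC genes, 10 reached 10 CPM, and as a sum they stood at 727 CPM in anagen, 665 in catagen and 697 in telogen. The most abundant were *DNAJC8*, a spliceosome protein, at 145, 116 and 128 CPM, and *DNAJC21*, which acts in ribosome assembly, at 137, 115 and 121 CPM. Both were highest in anagen by CPM, and for telogen over anagen their log2 ratios of -0.18 became 0.07 under median-of-ratios scaling. *DNAJC7*, which binds both HSP70 and HSP90, differed little between stages by CPM, at 94.4, 80.9 and 85.3. It was raised in the hair cortex-like cluster 15, at 211, 236 and 187 CPM, which was 2.24-fold, 2.84-fold and 2.11-fold over all other cells. *DNAJC15*, a mitochondrial import protein that lies outside the rule for named genes and is named after its values were seen, was raised in the inner root sheath-like cluster 14, at 26.9, 15.98 and 37.4 CPM. Over all cells it stood under 10 CPM, at 9.10, 3.53 and 4.52 CPM, a log2 ratio of -1.37 for catagen over anagen from 182 and 754 UMIs, and catagen was lower than anagen within 13 of 13 compartments.

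The remaining DNAJC genes with a marked stage ratio serve the endosome, mitochondrion and translation. *DNAJC13*, which acts at endosomes, stood at 15.03 CPM in anagen, 25.5 in catagen and 11.8 in telogen. Catagen was the high library, with log2 ratios of 0.76 over anagen and -1.11 for telogen over catagen (-1.23 to -0.9997), and telogen was lower than catagen within 21 of 21 compartments. *DNAJC19*, of the mitochondrial import motor, was lowest in catagen at 40.2 CPM, against 57.9 in anagen and 64.3 in telogen. The mitotic-like cluster 9 had 109, 90.01 and 112 CPM of it. *DNAJC24*, which takes part in making diphthamide on the elongation factor eEF2, stood at 16.04, 16.7 and 26.2 CPM, and telogen was higher than anagen within 21 of 21 compartments.

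The 6 BAG genes summed to 167 CPM in anagen, 158 in catagen and 148 in telogen. *BAG2*, an inhibitor of the ubiquitin ligase *STUB1*, stood at 7.04, 6.03 and 10.4 CPM. Telogen was the high library, with a log2 ratio of 0.79 over catagen (0.61 to 0.98), and it was higher than catagen within 15 of 17 compartments. The hair cortex-like cluster 15 held 20.8 CPM in anagen, 28.4 in catagen and 48.7 in telogen.

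The CCT genes differed little between stages as a sum of CPM, and *CCT3* differed most among those with 10 CPM. The sum was 781 CPM in anagen, 729 in catagen and 754 in telogen, with log2 ratios of the sum of -0.10, -0.05 and 0.05, each of which changed sign under another scaling or weighting. The members of the ring did not move as a block: from anagen to catagen *CCT2*, *CCT7* and *CCT5* had log2 ratios of -0.24, -0.26 and -0.34, while *CCT4* had 0.25, which became -0.0019 under median-of-ratios scaling. *CCT2* stood at 245, 207 and 232 CPM, *CCT7* at 201, 167 and 160 CPM, *CCT5* at 154, 122 and 139 CPM and *CCT4* at 115, 137 and 133 CPM. *CCT3*, which lies outside the rule for named genes and is named after its values were seen, stood at 63.3, 94.03 and 88.3 CPM, with log2 ratios of 0.57 for catagen over anagen and 0.48 for telogen over anagen, and each was higher than anagen within 23 of 24 compartments.

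The compartments with the most CCT were mostly the same set in anagen and catagen, and less so in telogen. For each of *CCT2*, *CCT3*, *CCT4*, *CCT5* and *CCT7* the 4 highest of the 24 compartments were listed in each library, which gives 15 lists. In 11 of them the 4 were exactly the mitotic-like cluster 9, the S phase-like cluster 13, the inner root sheath-like cluster 14 and the hair cortex-like cluster 15, and the other 4 lists held 3 of these. All 5 lists in anagen and all 5 in catagen held exactly the set, against 1 of 5 (*CCT7*) in telogen. *TCP1*, a further subunit whose symbol falls outside the rule, had the same 4 highest compartments in all 3 libraries, with 294, 314 and 255 CPM in cluster 15. The set was picked after the clusters were seen, and the share of all genes with the same set was not counted. It is not read as particular to CCT. For *HSPA8*, the 4 highest compartments held 3, 4 and 3 of the set in anagen, catagen and telogen. In cluster 14 *CCT2* held 371, 388 and 443 CPM, and in cluster 12 it held 129.5, 121 and 165 CPM. In catagen these 4 clusters had medians of 5128.5 to 6978 UMIs per cell, against 3339.5 over the library, and in telogen of 8366 to 12130.5, against 5561. In anagen clusters 9, 13 and 15 had 10195, 7453 and 5768, and cluster 14 had 4486, against 5251.5. The part of depth in these levels was not tested.

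**Figure D5:**
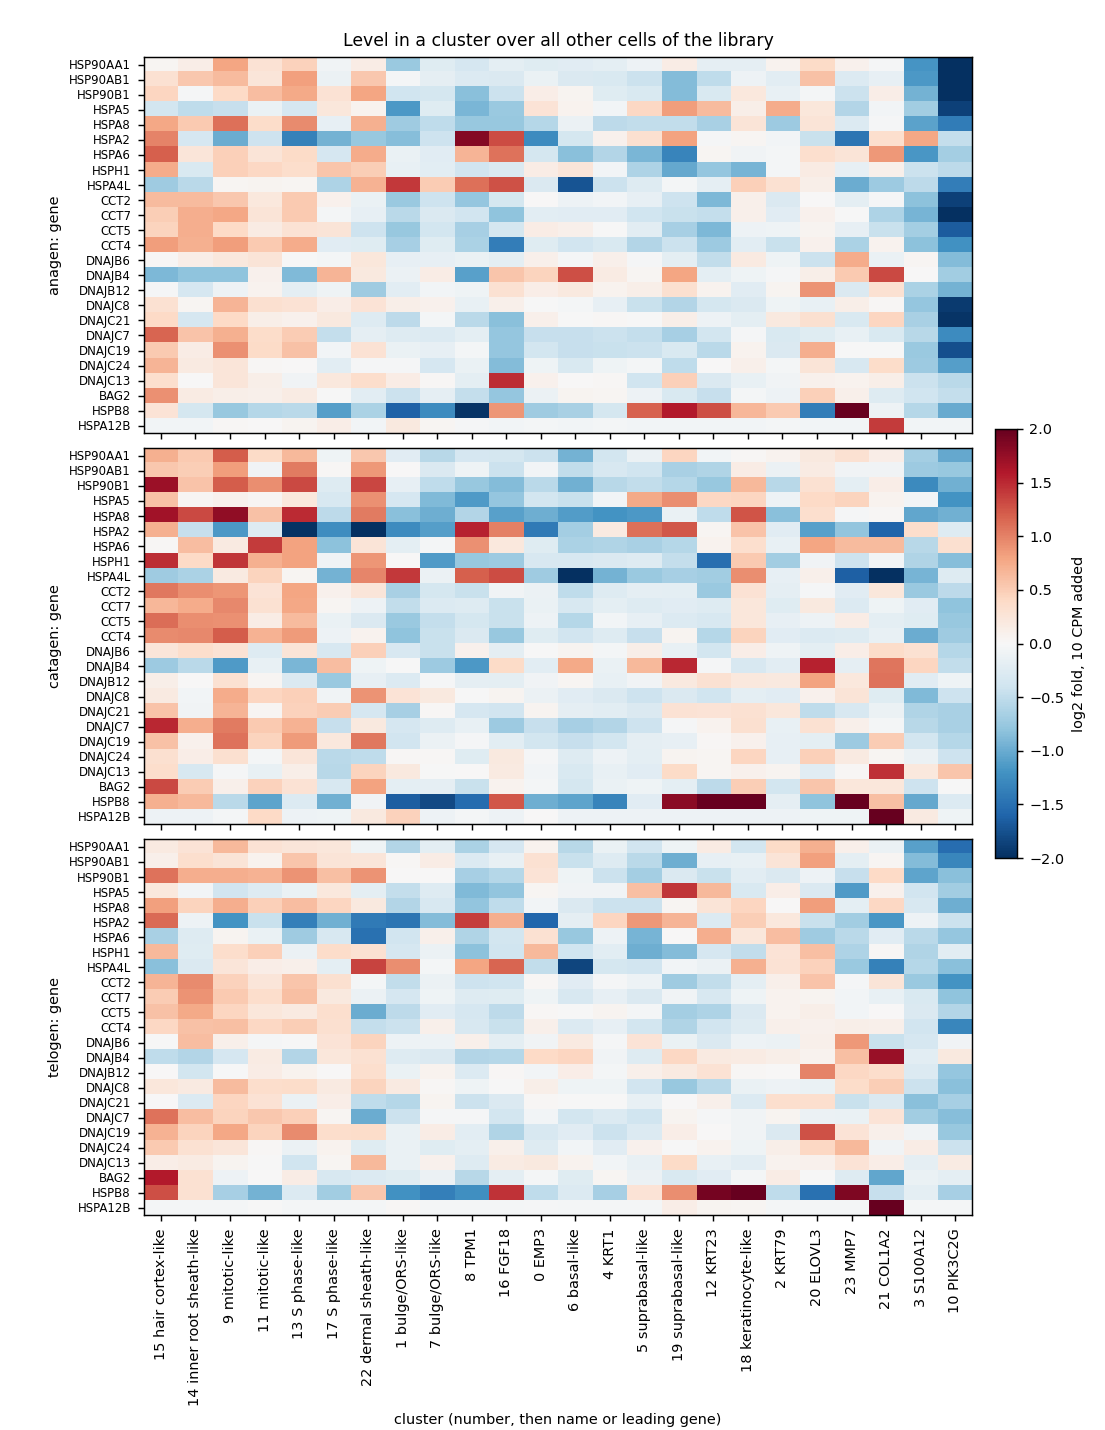
Log2 fold of the level in a compartment against the remaining cells of its library (10 CPM added to both levels) for the 25 chaperone genes described with values; red is higher and blue lower, and the scale stops at 2. The CCT genes and HSPA8 are red toward the left (clusters 15, 14, 9 and 13), HSPB8 is red at clusters 12 and 23 and blue at clusters 1, 7 and 8, and cluster 10 is blue for most genes.

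*HSPB8*, which works with *BAG3* in clearing misfolded proteins, was the only small HSP above 10 CPM among the genes the symbol rule found. It stood at 39.4 CPM in anagen, 31.1 in catagen and 18.03 in telogen, and telogen lay lowest with a log2 ratio of -1.13 over anagen (-1.21 to -1.04). Telogen was lower than anagen within 20 of 23 compartments. *HSPB8* also differed widely between compartments. In cluster 23, led by *MMP7* and *MGP* and holding 32 to 48 cells of each library, it stood at 183 CPM in anagen, 188 in catagen and 91.1 in telogen. In cluster 12 (*KRT23* and *CNFN*) it stood at 105, 158 and 81.3 CPM, and in the keratinocyte-like cluster 18 at 67.4, 153 and 110 CPM. The name of cluster 18 rests on granular keratinocyte markers such as *SPINK9* and *KLK10*. Markers of suprabasal epidermis (*SBSN* and *DSG1*), companion layer (*KRT75* and *KRT17*) and dermal sheath (*TAGLN* and *MYL9*) were also raised there. *HSPB8* was low in the bulge and outer root sheath-like clusters 1, with 6.57, 3.98 and 2.40 CPM, and 7, with 11.2, 2.39 and 1.24 CPM. In cluster 8 it was also low, with 3.21, 4.62 and 2.42 CPM. Clusters 12, 18 and 23 lay above clusters 1, 7 and 8 in each of the 3 libraries, with no overlap of intervals. Both groups were picked by these levels, so the gap between them is not read as a result. Other compartments were also high, such as the suprabasal epidermis-like cluster 19, second highest in anagen at 133 CPM.

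A gene was counted for a compartment if it had 10 CPM there or in the remaining cells, in each library. Of 44 such chaperone genes, 7 were at least 2-fold higher in some compartment than in all other cells in all 3 libraries. These were *HSPA2*, *HSPA4L*, *HSPA12B*, *HSPB8*, *DNAJB4*, *DNAJC7* and *DNAJC15*, and they made up 15.9%, beside 28.2% of all genes. At 1.5-fold the count was 26 of 44, or 59.1%, beside 53.7% of all genes. *HSPA12B* and *DNAJC15*, under 10 CPM over all cells of each library, entered only through the compartment where they were high. Other genes could enter the count of all genes in the same way, so the 2 shares are not read as a result. No HSP90 or CCT gene was among the 7, nor were *HSPA5* and *HSPA8*.

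Other genes of the chaperone pathway were taken from lists. Of 29 co-chaperones and regulators with a row, 20 reached 10 CPM in anagen or catagen, and 0 passed 2-fold in either direction, beside 4.41% of all genes higher and 3.47% lower. In telogen over anagen 2 of 19 were at least 2-fold higher, *CRYAB* and *FKBP5*, beside 3% of all genes, and 0 lower, beside 7.83%. *CRYAB*, a small HSP that the symbol rule misses, stood at 267 CPM in anagen, 481 in catagen and 628 in telogen. Its levels were 2739, 3696 and 4639 CPM in cluster 16, where it was itself among the 10 leading genes, and 35.1, 29.8 and 35.7 CPM in the suprabasal epidermis-like cluster 5. *FKBP5*, a partner of HSP90 on steroid receptors, stood at 27.4, 51.4 and 61.3 CPM, and *PPID*, of the same group, at 17.5, 30.9 and 28.9 CPM. *TRAP1*, the HSP90 of mitochondria, stood highest in anagen, at 36.2 CPM against 18.2 and 21.4. The transcription factor *HSF1*, master regulator of the heat shock response, was at 3.60, 6.62 and 2.93 CPM.

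The ER stress genes gave a frame for *HSPA5*. Of 14 with a row, 13, 12 and 13 reached 10 CPM in the 3 comparisons, and 0 passed 2-fold in any of them, beside 4.41% higher and 3.47% lower of all genes in catagen over anagen, 3% and 7.83% in telogen over anagen, and 4.1% and 12% in telogen over catagen. In catagen over anagen 7 of 13 had a ratio above 0, beside 53.2% of all genes, and in telogen over anagen 3 of 12, beside 37%. Of all 14, 3 (*CALR*, *DDIT3* and *P4HB*) had the order anagen, catagen, telogen of *HSPA5*. The share of all genes with that order was not counted, so the 3 are not read as moving with *HSPA5*. The sum of the 14 was 1486 CPM in anagen, 1356 in catagen and 1245 in telogen, a smaller difference than that of *HSPA5* alone. *CALR*, an ER lectin chaperone, stood at 339 CPM in anagen, 266 in catagen and 202 in telogen, and *DDIT3*, of the ER stress response, at 132, 93.6 and 76.8 CPM. *SDF2L1*, which works with *HSPA5* in the ER, ran otherwise, at 58.6, 45.9 and 91.04 CPM, as did *PDIA3*, a disulfide isomerase, at 174, 249 and 215 CPM. Among the early response genes, 5 of 16 were at least 2-fold higher in catagen than in anagen, beside the 4.41% of all genes, and 9 of 16 were at least 2-fold lower in telogen than in anagen, beside 7.83%. In telogen, the library with the lowest early response sum, chaperone genes went both ways. *HSPA5*, *DNAJB6* and *HSPB8* were among those with their lowest level there, and *HSPH1*, *HSPA6*, *DNAJC24* and *BAG2* among those with their highest. The early response sum was highest in catagen, and its part in these levels was not tested.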

How the data were processed

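Single-cell libraries of anagen, catagen and telogen skin were read as the counts the authors deposited, which are whole UMIs per gene and cell barcode, not normalized. The paper describes anagen and catagen only, and per its methods reads were aligned with STAR and cells called by Cell Ranger. The telogen library is not in the paper. The submitters' processing notes name version 2.1.1, and the file headers 4.0.0 (anagen), 3.1.0 (catagen) and 6.0.2 (telogen). The genome build is not given in the sources used here, and no coordinates are printed. Barcodes with fewer than 200 genes were removed (13, 62 and 71 cells). The kept cells held 82816430, 51537357 and 103430933 UMIs. UMIs of a 3′ library are not scaled by gene length.

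The libraries were integrated with Seurat 5.3.0 anchors in R 4.3.3 and clustered at resolution 0.8, with the chaperone genes left out of the variable genes. A cluster was named where at least 3 markers of a single type were raised 1.5-fold and 1 stood among its 10 leading genes, a rule chosen after the clusters were seen. Of 92 listed markers 80 had a row. UMIs were summed per library or per cluster and library (Python 3.11.15, numpy 2.4.6, scipy 1.17.1). Levels carry exact Poisson intervals and ratios exact conditional binomial intervals, at 95%. Ratios within a cluster needed 20 UMIs over both libraries and had 1 CPM added. Genes entered a stage count with 10 CPM in either library, and a compartment count with 10 CPM in the cluster or the rest of each library. No test was run, since each stage had 1 library. The ratio step was tested on simulated data.

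Genes given with values are the 12 with the highest mean CPM, for each pair of stages the 3 highest and 3 lowest ratios, and the 6 with the largest ratio of a compartment over all other cells, 25 in all. Pathway genes came from lists of 36 co-chaperones and regulators, 18 ER stress genes and 18 early response genes, of which 29, 14 and 16 had a row. The genes, lists and rule were chosen with earlier results of these data known. Doublets were left in. Scrublet (scanpy 1.11.5) called 0 cells in each library, so its threshold had not worked, and removing the highest 5% of scores was an alternative. Other alternatives were cell filters, scalings, weightings, level limits, a 1.5-fold limit and other clusterings.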

Additional observations from a re-analysis of the deposited data

How the results depend on the processing

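Counts of chaperone genes past 2-fold were small and moved with the settings. With median-of-ratios scaling they were 0 higher in catagen over anagen (1.94% of all genes), 2 higher and 0 lower in telogen over anagen (5.53% and 4.38%), and 6 higher and 0 lower in telogen over catagen (16.002% and 2.80%). At 1.5-fold they were 4 higher and 3 lower, 3 higher and 9 lower, and 5 higher and 7 lower in the same 3 comparisons, and 26 genes were raised in a compartment (53.7% of all genes). With clusters weighted equally, 0 were lower in catagen over anagen (2.41%), 1 lower in telogen over anagen (5.75%) and 0 higher in telogen over catagen (3.18%). With no minimum level, 5 were higher and 4 lower in catagen over anagen (21.9% and 10.5%), 1 higher in telogen over anagen (9.60%) and 6 lower in telogen over catagen (33.4%). With 50 CPM as the limit, 0 were lower in catagen over anagen (3.95%), 1 lower in telogen over anagen (8.23%) and 0 higher in telogen over catagen (6.65%). With at least 1000 genes per cell, 2 were higher in catagen over anagen (4.88%) and 4 were raised in a compartment (21.4%). Leaving the 20 most abundant genes out of the total gave 2 lower in catagen over anagen (2.88%), and the mean of per-cell CPM gave 0 higher in telogen over catagen (3.92%). Fewer genes are counted under a higher limit by construction, and the causes of the other moves were not tested. The other 61 values of these counts stayed within 1.5 times. Single stage ratios and family sums counted as moved where they left the counting interval of the main ratio. For the highest compartment of a gene the limit was a 1.5-fold change. By these limits 797 values stayed and 397 moved. In addition, 1 that was past 2-fold changed its sign: *HSPA12B*, telogen over catagen, at 0.10 with clusters weighted equally against -1.29. Leaving out clusters 3 and 10, or cluster 16, and asking for 50 cells per cluster were chosen after seeing the data.

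No paired analysis was possible because each stage had 1 library. Depth limits the 12 genes under 1 CPM, for which no stage order is read, and all clusters under 50 cells.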

Other observations

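Some chaperone genes outside the rule for named genes stood out in single compartments and are named after their values were seen. *DNAJA4*, a J domain protein of the cytosol, was highest in every library in cluster 20, which is led by *ELOVL3*, *ELOVL1* and *MBOAT2*, genes of fatty acid and lipid synthesis. It stood there at 60.5 CPM in anagen (48.0 to 75.3), 20.4 in catagen (7.49 to 44.4, from 6 UMIs) and 88.1 in telogen (67.2 to 113), against medians over the 24 compartments of 8.19, 8.88 and 13.6 CPM. The catagen interval covers the 17.7 CPM of the next highest compartment, so the catagen order is not resolved. *BAG1*, a nucleotide exchange factor of HSP70, was highest in every library in the suprabasal epidermis-like cluster 19, at 29.2 CPM in anagen (20.7 to 40.1), 81.7 in catagen (67.8 to 97.7) and 63.9 in telogen (47.3 to 84.5). The anagen interval covers the 27.9 CPM of the next compartment. *BAG5* was highest in every library in cluster 21 (*COL1A2*, *VIM* and *PECAM1*), at 42.5 CPM in anagen (26.0 to 65.6), 34.9 in catagen (9.51 to 89.4, from 4 UMIs) and 69.8 in telogen (42.6 to 108). The anagen and catagen intervals cover the next highest compartments, at 37.0 and 29.0 CPM. *BAG3*, which works with *HSPB8*, stood at 18.2 CPM in anagen, 18.2 in catagen and 26.4 in telogen, whereas *HSPB8* stood at 39.4, 31.1 and 18.03 CPM in the same libraries.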
